A study of Mus musculus with 12 samples.

Results

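The genes described here are the transcription factor gene *Myc* and genes of the cell division cycle, measured in mouse thymocytes before and after stimulation of the T-cell receptor. They were chosen by gene symbol. The set holds minichromosome maintenance genes (*Mcm2* to *Mcm7*), the A, B, D and E cyclins, cyclin-dependent kinases and their inhibitors, genes named *Cdc*, the E2F factors, and *Myc*, *Pcna*, *Mki67*, *Top2a*, *Rrm1*, *Rrm2*, *Plk1*, *Bub1* and *Birc5*. Of 8251 genes that had a probe set with 1 gene symbol, 59 belonged to the set, through 79 probe sets, and for each gene the brightest of its probe sets, by mean signal over the 12 arrays, was taken. *Tyms* is not analysed here. Of the 59 genes, 55 reached a mean signal of 100 in at least 1 of the 6 conditions and were tested among 9478 probe sets. *Ccna1*, *Cdkn2b*, *Mcm6* and *Ccnb1ip1* stayed below that level and were not tested.

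Total thymocytes came from 6 female mice of the strain C57Bl/6 x 129Sv (F1), 6 to 7 weeks old. The 4 control mice were 2 mice with wild type *Med23* and the *Lck-Cre* transgene (Med23+/+;Lck-Cre) and 2 mice with floxed *Med23* and no transgene (Med23flox/flox). The MED23 null group was 2 Med23flox/flox;Lck-Cre mice, in which Cre expressed from the *Lck* promoter deletes *Med23*, which encodes a subunit of the Mediator coactivator, in thymocytes from the late double negative stage on, so that cells of earlier stages and cells that are not of the T lineage keep the gene. After a rest of 4 h, the thymocytes of a mouse were split and spent 3 h either unstimulated (mock) or on αCD3 antibody bound to the plate, giving 1 array per mouse and treatment. The *Lck-Cre* transgene on its own is known to lower thymocyte number modestly, an effect that Med23flox/flox mice do not share. Each mouse therefore serves as its own reference for the response to αCD3, whereas the genotypes are compared between 2 and 4 mice.

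MYC is a basic helix-loop-helix factor that binds E-box DNA as a dimer with MAX and raises the expression of genes of ribosome production, nucleotide synthesis and metabolism, and *Myc* is a known early response gene of the T-cell receptor. D-type cyclins with CDK4 or CDK6 and E-type cyclins with CDK2 phosphorylate the RB proteins and free the E2F factors, which drive the genes of DNA replication. The MCM proteins form the replicative helicase, PCNA clamps the polymerase to DNA and ribonucleotide reductase supplies deoxyribonucleotides, while A and B cyclins with CDK1, and then CDC20 and the anaphase promoting complex, carry the cell through mitosis. In the thymus most dividing cells are late double negative and early double positive (DP) cells, and most DP cells and mature single positive cells are at rest.

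Promoter sequences (the 250 bases before the start) from RefSeq, build GRCm38.p6, were found for 48 of the 59 genes. *Myc*, *Ccnd1*, *Ccnd2*, *Ccna2*, *Ccne2*, *Cdk5*, *Cdkn1c*, *Cdc23*, *Cdc25c*, *E2f5* and *Mcm4* had no entry. These windows were searched on both strands for the E-box CACGTG, for the E2F words TTTCCCGC or TTTGGCGC or TTTCGCGC, and for the CHR (cell cycle genes homology region) words TTTGAA or TTCGAA. Of the 57 promoters of these 48 genes, 5.26% held an E-box, 15.8% an E2F word and 22.8% a CHR word, beside 6.02%, 1.53% and 17.1% of all 32851 promoters. E2F words lay before *Mcm5*, *Mcm6*, *Mcm7*, *Cdc6*, *Cdc25a*, *Cdk1*, *Cdk2*, *Cdkn2a* and *E2f3*, and E-boxes before *Cdk4*, *Cdk7* and *E2f3*. A match is a description of letters and does not show that a factor binds. The following 4 promoters are printed because their genes stand for the parts of the cycle described below: *Cdk4*, with 4 E-boxes, as a G1 kinase gene, *Mcm5*, with 2 overlapping E2F words on opposite strands, as a replication gene, *Cdk1*, with 1 E2F and 2 CHR words, as the mitotic kinase gene, and *Top2a*, with 4 CHR words, as a G2 and mitosis gene.
Cdk4 promoter, chr10:127063285-127063534, + strand, E-box letters in capitals: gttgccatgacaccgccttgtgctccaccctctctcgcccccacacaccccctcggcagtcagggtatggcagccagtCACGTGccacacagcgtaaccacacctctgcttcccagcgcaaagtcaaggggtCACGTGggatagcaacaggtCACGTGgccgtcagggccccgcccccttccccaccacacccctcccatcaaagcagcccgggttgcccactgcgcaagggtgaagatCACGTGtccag
Mcm5 promoter, chr8:75109259-75109508, + strand, E2F letters in capitals: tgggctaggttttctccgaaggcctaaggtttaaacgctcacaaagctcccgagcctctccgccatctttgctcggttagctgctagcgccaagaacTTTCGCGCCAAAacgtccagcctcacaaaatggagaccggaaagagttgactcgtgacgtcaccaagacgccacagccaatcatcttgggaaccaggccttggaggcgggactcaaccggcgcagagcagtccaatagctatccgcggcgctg
Cdk1 promoter, chr10:69352913-69353162, - strand, E2F and CHR letters in capitals: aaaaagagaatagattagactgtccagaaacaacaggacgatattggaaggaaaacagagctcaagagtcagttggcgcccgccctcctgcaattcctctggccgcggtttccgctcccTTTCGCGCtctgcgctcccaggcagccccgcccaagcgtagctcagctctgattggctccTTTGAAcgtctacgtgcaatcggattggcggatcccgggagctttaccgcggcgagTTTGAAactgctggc
Top2a promoter, chr11:99024190-99024439, - strand, CHR letters in capitals: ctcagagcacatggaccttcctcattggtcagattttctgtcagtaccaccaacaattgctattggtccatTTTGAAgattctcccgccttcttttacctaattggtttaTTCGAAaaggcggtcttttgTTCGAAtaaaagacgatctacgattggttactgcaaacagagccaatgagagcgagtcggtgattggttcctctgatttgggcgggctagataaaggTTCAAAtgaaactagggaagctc

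The *Med23* probe set had signals in mock and αCD3 cells of 424.2 and 309.9 in Lck-Cre mouse 1, 368.5 and 424.9 in Lck-Cre mouse 2, 288.1 and 488.8 in Med23flox/flox mouse 1, and 380.8 and 380.8 in Med23flox/flox mouse 2. In the MED23 null mice they were 268.4 and 252.1, and 207.3 and 239.0. Both null arrays of a treatment lay below the 4 control arrays of that treatment, but whether its probes match the floxed exons could not be checked. The αCD3 array of Med23flox/flox mouse 1 stood apart, with a lower quartile of signal of 85.2 against at most 58.2 on the other 11 arrays and a mean correlation with the others of 0.905 against 0.937 to 0.945.

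*Myc* rose after 3 h of αCD3, with a higher signal in every mouse. Of the genes of the cycle itself none passed the test, *Ccnd2* came closest, and for the other 53 genes the 95% interval of the mean over the 6 mice lay within a 2-fold change. The *Myc* signal went from 130.6 to 465.7 in Lck-Cre mouse 1 and from 110.5 to 423.9 in Lck-Cre mouse 2. In the Med23flox/flox mice it went from 132.5 to 284.6 and from 144.5 to 453.9. In the MED23 null mice it went from 85 to 200.5 and from 111.3 to 348.6. The 6 αCD3 signals all lay above the 6 mock signals. The ratio of αCD3 to mock signal within a mouse was 3.17 ± 0.741 (SD, n = 4) in the control mice and 2.75 ± 0.547 (SD, n = 2) in the null mice.

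Averaged over the 6 mice, *Myc* rose by 1.25 (standard error, SE, 0.13) on the scale of log2(signal + 50), which understates the change of genes with low signals, and passed limma's test at an adjusted p of 0.0239. *Myc* was the 1 of 55 genes that passed in this comparison, in which 0.338% of all probe sets passed as higher. The call rested on having all the mice: it was kept without Med23flox/flox mouse 1 (adjusted p = 0.025 from limma) and lost without any one of the other 5 mice, when the adjusted p lay between 0.0808 and 0.147 at log2 differences of 1.19 to 1.33. It was also lost with Lck-Cre mice alone (1.32, adjusted p = 0.208) or Med23flox/flox mice alone (1.11, adjusted p = 0.533) as controls. In the 4 control mice on their own limma's estimate for *Myc* was 1.33 (SE 0.16, adjusted p = 0.0521), and none of the 55 genes passed, where 0.148% of all probe sets did as higher. In the 2 MED23 null mice it was 1.10 (standard error 0.23, adjusted p = 0.548 from limma), again with none of the 55 genes and 0.0317% of all probe sets past the threshold.

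**Figure D1:**
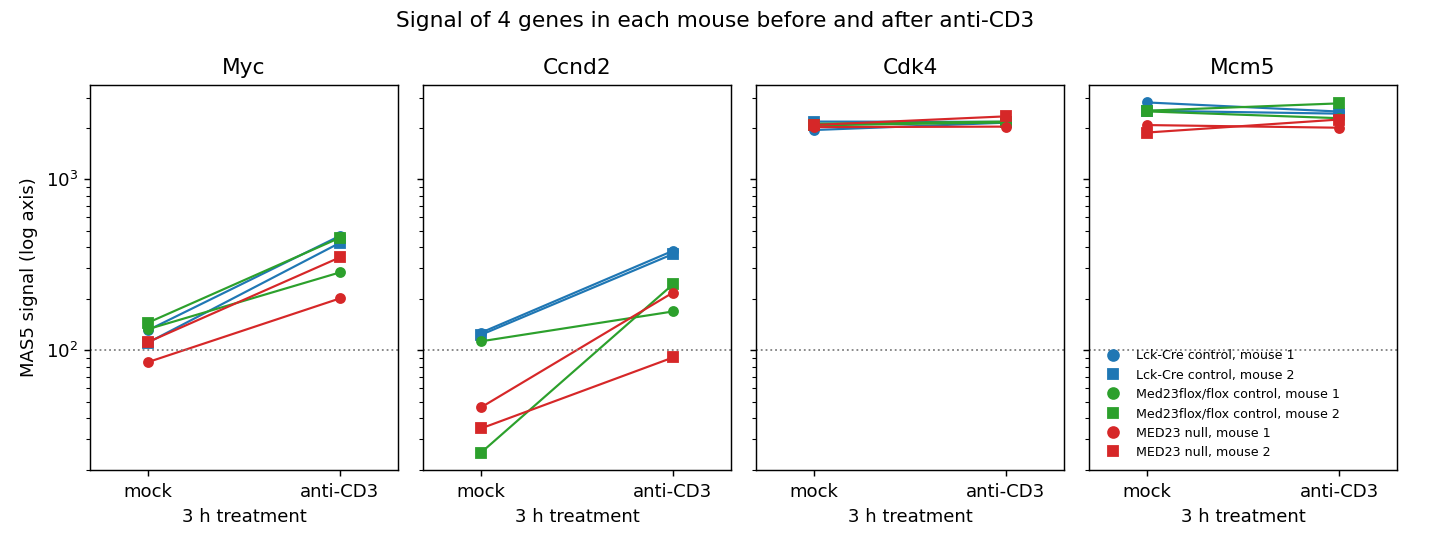
Signal of *Myc*, *Ccnd2*, *Cdk4* and *Mcm5* (log axis, MAS5 signal) in mock and αCD3 cells, with 1 line per mouse, colour for genotype, and a dotted line at a signal of 100. All 6 lines rise for *Myc* and *Ccnd2* and stay nearly level for *Cdk4* and *Mcm5*. The 2 MED23 null mice start lowest for *Mcm5*. Heights of different genes are not comparable.

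The *Myc* signal in MED23 null cells lay in the lower part of the control range or below it. In mock cells the means were 129.5 ± 14.1 (SD, n = 4) in the control mice and 98.15 ± 18.6 (SD, n = 2) in the null mice, and after αCD3 they were 407 ± 83.5 (SD, n = 4) and 274.5 ± 105 (SD, n = 2). The ranges of control and null mice overlapped in both treatments. The null minus control log2 difference was -0.28 in mock cells (standard error 0.16, adjusted p = 0.749 from limma) and -0.51 after αCD3 (standard error 0.27, adjusted p = 0.9 from limma). The induction itself differed between null and control mice by -0.23, with a 95% interval from -0.89 to 0.43, which holds 0 as well as a response 1.5 times smaller in null mice. These differences rested on single null mice: without null mouse 1 or null mouse 2 they were -0.15 or -0.41 in mock cells, -0.18 or -0.85 after αCD3, and -0.03 or -0.44 for the induction. In bulk thymocytes fewer cells of a type and less RNA per cell cannot be told apart.

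Of the cyclins, which activate the CDKs, 7 of 8 were tested and *Ccnd2* alone stood out. *Ccnd2* encodes cyclin D2, a G1 cyclin of lymphocytes. Its signal went from 126.4 to 380.7 and from 122.8 to 364.5 in the Lck-Cre mice, from 112.5 to 168.2 and from 25.1 to 242.4 in the Med23flox/flox mice, and from 46.2 to 216.9 and from 34.8 to 90.5 in the MED23 null mice. It was higher after αCD3 in 6 of 6 mice. Since 3 of the mock signals were below 50, the ratios were uneven, at 4.28 ± 3.65 (SD, n = 4) in the control mice and 3.65 ± 1.48 (SD, n = 2) in the null mice. The log2 difference over the 6 mice was 1.19 (standard error 0.21), close to that of *Myc*, with an unadjusted p of 0.000852 and an adjusted p of 0.114 from limma, and it passed at 0.0475 with a variance trend. In the control mice it was 1.23 (standard error 0.26, adjusted p = 0.211 from limma) and in the null mice 1.10 (standard error 0.36, adjusted p = 0.814 from limma).

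The other cyclins stayed between -0.12 and 0.11 over the 6 mice. *Ccnb2*, a mitotic cyclin and the cyclin with the highest signal, went from 5787 ± 453 (SD, n = 4) to 5310 ± 356 (SD, n = 4) in control and from 6682 ± 261 (SD, n = 2) to 6110 ± 471 (SD, n = 2) in null mice. It was lower after αCD3 in 6 of 6 mice, with a mean log2 difference of -0.12 (SE 0.10) and an adjusted p of 0.82 from limma. The D cyclins *Ccnd1* and *Ccnd3* had -0.06 and 0.03, and *Ccna2*, the S and G2 cyclin, had 0.02 at signals that ran from 2435 to 3259 over the 12 arrays.

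**Figure D2:**
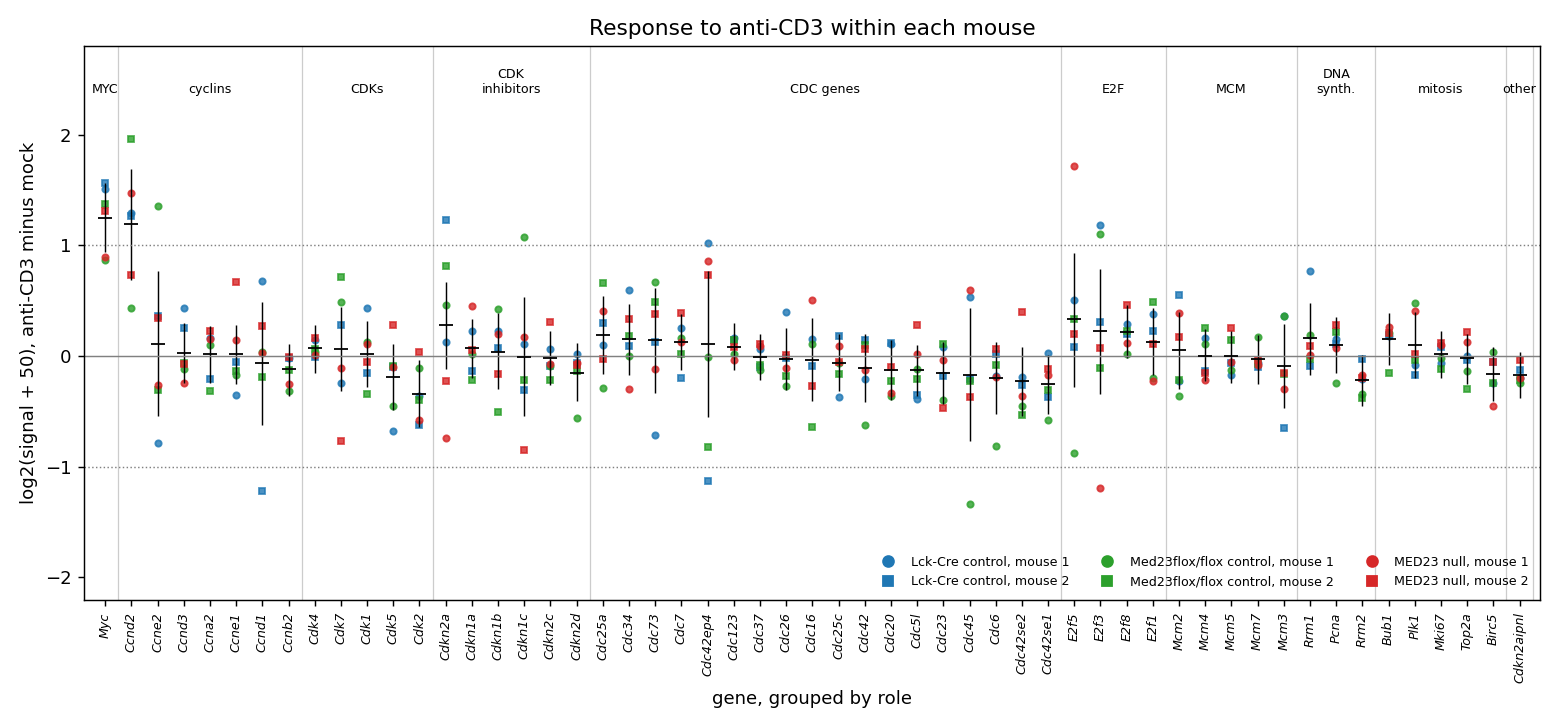
Log2(signal + 50) difference between αCD3 and mock cells for the 55 tested genes, grouped by role, with 1 point per mouse and, in black, the mean of the 6 mice with its 95% interval. Dotted lines mark a 2-fold change of signal + 50. *Myc* and *Ccnd2* lie above 0 in every mouse, and the wide scatters belong to genes with signals near 100, such as *E2f5*, *E2f3*, *Cdc42ep4*, *Ccne2* and *Cdkn2a*.

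Over all 55 genes the median log2 difference between αCD3 and mock was 0.02, beside -0.01 over all probe sets tested, and 29 were higher and 26 lower. For 53 of the 55, all but *Myc* and *Ccnd2*, the 95% interval of the log2 difference lay within a 2-fold change in either direction, and for 44 it lay within 1.5-fold. At an unadjusted p of 0.05, 2 genes (*Myc* and *Ccnd2*) were higher and 1 (*Cdk2*) was lower, which is 3.64% and 1.82% of the 55, beside 4.88% and 2.65% of all probe sets. *Myc*, *Ccnd2* and *E2f8* were higher in 6 of 6 mice, and *Ccnb2*, *Rrm2* and *Cdkn2aipnl* lower in 6 of 6, each 5.45% of the 55, beside 3.61% and 2.17% of all probe sets. On linear signals the mean ratio over the 4 control mice was at least 2 for *Myc*, *Ccnd2*, *Cdkn2a* and *E2f3*, which is 7.27% beside 8.54% of all probe sets. A ratio of at least 2 in each of the 4 control mice was met by *Myc* alone, 1.82% of the 55 beside 0.496%. A ratio of at least 2 in both null mice was met by *Myc*, *Ccnd2* and *Cdc42ep4*, 5.45% of the 55 beside 1.31%.

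Among the 5 CDKs, *Cdk4*, the kinase partner of the D cyclins whose promoter holds 4 E-boxes, was the steadiest, with signals from 1936 to 2328 on the 12 arrays and a log2 difference over the 6 mice of 0.07 (95% interval -0.15 to 0.28). *Cdk1*, which drives entry into mitosis, had a difference of 0.02 (standard error 0.13). *Cdk2*, the partner of the E cyclins, went from 1080 ± 110 (SD, n = 4) to 820.8 ± 61.5 (SD, n = 4) in control and from 910.7 ± 88.0 (SD, n = 2) to 752.7 ± 168 (SD, n = 2) in null mice. Its log2 difference was -0.37 in control mice (standard error 0.15, adjusted p = 0.623 from limma), and a second, dimmer *Cdk2* probe set had -0.03 over the 6 mice where the first had -0.34. *Cdk5*, a kinase studied mainly in neurons, had -0.33 in control mice (adjusted p = 0.66 from limma).

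Of the CDK inhibitors, 6 of 7 were tested, and their median difference over the 6 mice was 0.02. *Cdkn2d*, which encodes the CDK4 and CDK6 inhibitor p19-INK4d and had the highest signals of this group, had -0.15 (standard error 0.11). *Cdkn1a*, which encodes p21, had signals from 586.1 to 829.7 and its first probe set moved by 0.07, whereas a second, dimmer one moved by 0.50 (standard error 0.14). *Cdkn2a*, which encodes p16-INK4a and p19-ARF, went from 36.1 to 44.2, from 43.2 to 168.9, from 134.1 to 202.8 and from 77.4 to 172.9 in the control mice, and from 129.6 to 57.8 and from 37.3 to 24.5 in the null mice. Its log2 difference in control mice was 0.66 (standard error 0.20, adjusted p = 0.489 from limma), at signals of which 7 of 12 lay below 100.

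The *Cdc* genes share a name from yeast screens and not a function. *Cdc6* and *Cdc45* load and start the replicative helicase, *Cdc7* is its activating kinase, *Cdc25a* and *Cdc25c* are phosphatases that switch on CDKs, and *Cdc16*, *Cdc20*, *Cdc23* and *Cdc26* belong to the anaphase promoting complex, whereas *Cdc42* and its effectors *Cdc42ep4*, *Cdc42se1* and *Cdc42se2* act on the cytoskeleton *Cdc37* is a cochaperone of kinases, *Cdc5l* acts in splicing and *Cdc73* belongs to a complex of transcript elongation. All 18 were tested and their median difference over the 6 mice was -0.05, with a range from -0.25 to 0.19. *Cdc20*, with the highest signals of the group, had -0.13 (standard error 0.11). The largest test statistics in control mice were those of *Cdc42se1* (-0.31), *Cdc42se2* (-0.36) and *Cdc5l* (-0.27), with adjusted p of 0.65 from limma. The 4 E2F factors had differences of 0.13 to 0.33 over the 6 mice, and *E2f8*, a repressing E2F with the highest signals among them, ran from 431.2 to 569.5 in mock and from 473.4 to 802.9 in αCD3 cells of the 6 mice. Its probe set had a mean difference of 0.22 (SE 0.10) with an adjusted p of 0.677 from limma, whereas a second *E2f8* probe set with a mean signal of 479 had -0.06 (SE 0.13).

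No gene of DNA replication passed the test after αCD3. The 5 tested MCM genes had differences from -0.09 to 0.05, and that of *Mcm5*, with the highest signals, was 0.00 (95% interval -0.24 to 0.23). *Pcna* had 0.10 (standard error 0.11) and *Rrm2*, a subunit of ribonucleotide reductase, -0.22 (standard error 0.10, adjusted p = 0.677 from limma). The 5 mitosis and proliferation markers stayed between -0.16 and 0.15, and *Mki67*, the gene of the Ki-67 antigen, had 0.02 (95% interval -0.20 to 0.23). Of 28 other genes of the replication fork and origin, none passed and 1, the polymerase gene *Pold1*, had an unadjusted p under 0.05, at -0.37 (standard error 0.13), where 2.65% of all probe sets were lower at that level. Their median was -0.07. Of 25 other genes of mitosis and its checkpoints none passed and none had an unadjusted p under 0.05, with a median of -0.09 and the largest difference in *Mybl2* (-0.28, standard error 0.14). Of 5 genes of the RB family and its partners none passed, and *Rbl2* had -0.30 (standard error 0.13).

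Of 6 tested partners and relatives of MYC, none passed over the 6 mice after αCD3 and none had an unadjusted p under 0.05. *Mycn* had -0.29 (standard error 0.18) over the 6 mice, -0.53 in control and 0.19 in null mice, at signals of 20.2 to 131.6 in the mock cells of the control mice. *Mxd4*, which encodes a repressing partner of MAX, had -0.17 (standard error 0.11) over the 6 mice, -0.35 in control and 0.20 in null mice. *Max* itself had 0.04. Of 19 tested genes known from textbooks as targets of MYC, 16 were higher after αCD3 over the 6 mice, with a median log2 difference of 0.35, beside -0.01 over all probe sets. Of the 19, 9 were higher at an unadjusted p under 0.05, where 4.88% of all probe sets were, and none passed the adjustment.

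*Srm*, which encodes spermidine synthase, led the MYC target list, going from 166.7 to 341.9 and from 146.7 to 279.3 in the Lck-Cre mice, from 219.3 to 495.3 and from 142.5 to 427.8 in the Med23flox/flox mice, and from 117.2 to 180.7 and from 212.8 to 292.2 in the null mice. It was higher in 6 of 6 mice, by 0.80 (standard error 0.11, adjusted p = 0.0544 from limma). *Rcl1* and *Bop1*, which act in ribosome production, had 0.58 (standard error 0.23) and 0.54 (standard error 0.15), and *Eif4e*, the cap-binding protein of translation, had 0.56 (standard error 0.22) at signals mostly under 100. *Ncl* and *Npm1*, abundant nucleolar proteins, had 0.05 and -0.05. The median of the list was 0.38 in control and 0.19 in null mice. Within single mice the median of the list was 0.20 to 0.40 in controls and 0.17 and 0.25 in nulls. The difference in *Srm* induction between null and control mice was -0.56 (standard error 0.23, adjusted p = 0.97 from limma). The list was written from general knowledge, its members are also targets of other factors, and *Myc* and these genes were measured on the same arrays.

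**Figure D3:**
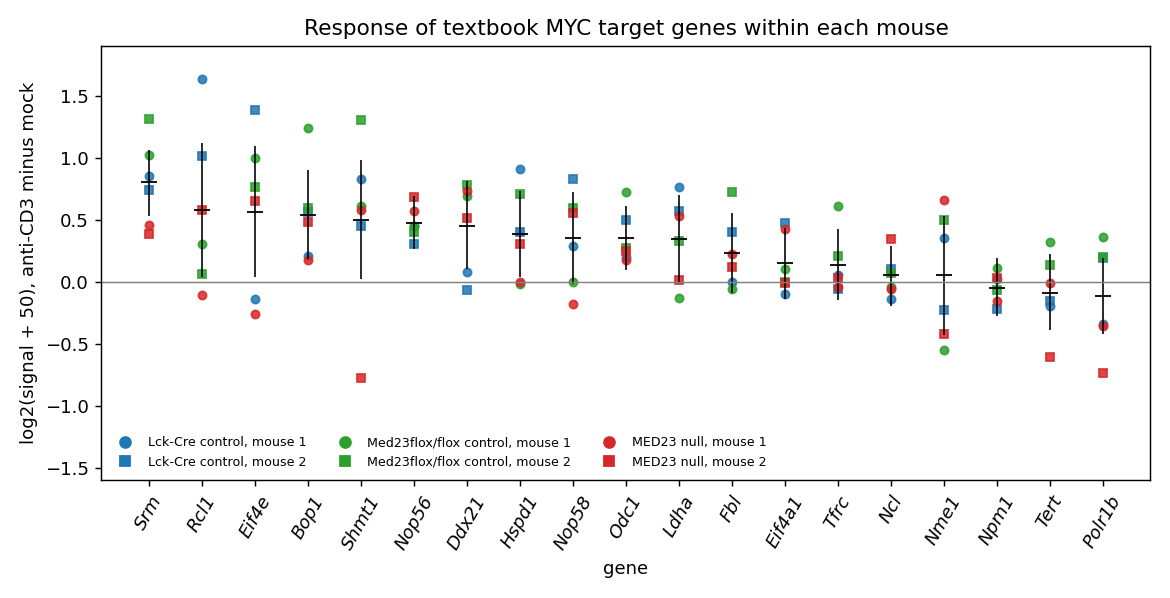
Log2(signal + 50) difference between αCD3 and mock cells for 19 textbook targets of MYC, with 1 point per mouse and, in black, the mean of the 6 mice with its 95% interval. *Srm*, *Bop1*, *Nop56* and *Odc1* are above 0 in all 6 mice, while *Ncl*, *Npm1*, *Tert* and *Polr1b* centre near 0.

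Without stimulus, the replication genes *Mcm5*, *Rrm2* and *Pcna* had lower signals in both MED23 null mice than in any control mouse, but none of the 55 genes passed the test, and no probe set of the array passed in this comparison (adjusted p under 0.05 from limma). The median null minus control log2 difference of the 55 genes was -0.09, beside 0.01 over all probe sets, with 15 higher and 40 lower. At an unadjusted p under 0.05, 5 genes were lower (*Mcm5*, *Rrm2*, *Pcna*, *Ccne1* and *Cdc42ep4*) and 1 was higher (*E2f3*), which is 9.09% and 1.82% of the 55, beside 3.63% and 3.77% of all probe sets. Both null signals lay below the 4 control signals for 10 genes and above them for 4, which is 18.2% and 7.27%, beside 8.44% and 9.27% of all probe sets.

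The mock signals of *Mcm5* were 2807, 2512, 2488 and 2512 in the control mice and 2070 and 1872 in the null mice. The log2 difference was -0.38 (standard error 0.14, adjusted p = 0.635 from limma), and the second *Mcm5* probe set, which is dimmer, had -0.84 (standard error 0.30). Those of *Rrm2* were 2466, 2359, 2710 and 2623 in the control mice and 1810 and 2084 in the null mice, a difference of -0.38 (SE 0.15) with an adjusted p of 0.647 from limma. Those of *Pcna* were 3345, 3149, 2572 and 3540 in the control mice and 2215 and 2385 in the null mice, a difference of -0.44 (SE 0.18) with an adjusted p of 0.652 from limma. For each of these 3 genes both null signals lay below all control signals. *Mcm5* encodes a helicase subunit, *Rrm2* the small subunit of ribonucleotide reductase and *Pcna* the polymerase clamp.

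The direction was not the same for every replication gene. *Rrm1*, the large subunit of ribonucleotide reductase, was higher in both null mice (1322 and 1274) than in the 4 control mice (928.3 to 1258), by 0.29 (standard error 0.17, adjusted p = 0.752 from limma), while the 5 MCM genes ranged from -0.43 to -0.06. *Ccne1*, the cyclin that acts at entry into S phase, had 584.8 ± 82.2 (SD, n = 4) in the control mice and 416.1 ± 49.1 (SD, n = 2) in the null mice, a difference of -0.44 (SE 0.18) with an adjusted p of 0.652 from limma. *E2f3* had signals of 20.2 to 104.9 in control and 149.2 to 176.1 in null mice (difference 1.00, standard error 0.34, adjusted p = 0.593 from limma), and *Cdc42ep4*, *E2f5* and *Cdk7* had -0.75, -0.69 and 0.51 at low signals. The 5 mitosis and proliferation markers lay between -0.10 and 0.10 on the probe sets used. Of 25 other mitosis genes 19 were higher in null cells, with a median of 0.14, none at an unadjusted p under 0.05. Of 28 other replication genes 18 were lower, and their median of -0.09 was that of the 55 genes. Of these, 3 (*Rfc4*, *Rpa1* and *Prim1*) had differences of -0.51, -0.46 and -0.45 at an unadjusted p under 0.05, where 3.63% of all probe sets were lower.

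**Figure D4:**
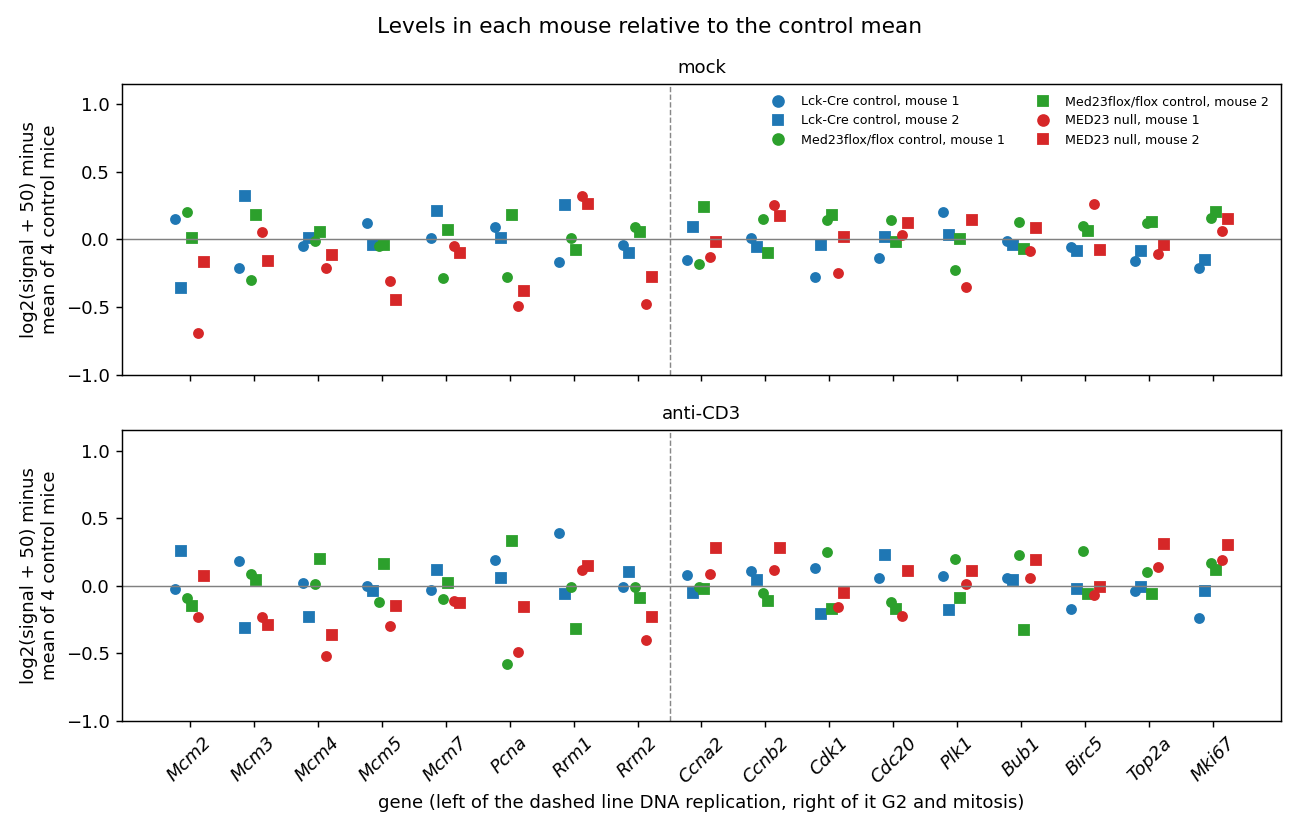
Log2(signal + 50) of 17 genes in each mouse minus the mean of the 4 control mice, in mock cells (top) and αCD3 cells (bottom), with replication genes left and G2 and mitosis genes right of the dashed line. In mock cells the red null points of *Mcm4*, *Mcm5*, *Pcna* and *Rrm2* lie below all control points and those of *Rrm1* and *Ccnb2* above them. The mock null points of *Mki67* fall among the control points. In αCD3 cells the null points of *Mcm4*, *Mcm5*, *Mcm7* and *Rrm2* lie below all control points, and those of *Ccna2*, *Ccnb2*, *Mki67* and *Top2a* above them.

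After αCD3, as in mock cells, all 5 tested MCM genes were lower in null mice, with a median of -0.23 beside -0.16 in mock cells, and none passed the test. The median difference of the 55 genes was -0.05, beside -0.01 over all probe sets. At an unadjusted p under 0.05, 1 gene (*Cdkn2a*, -1.04, standard error 0.42, adjusted p = 0.78 from limma) was lower, which is 1.82% beside 3.69% of all probe sets. None was higher, where 2.47% of all probe sets were. *Cdkn2a* reached the signal filter only in control conditions, so its lower value in null cells gives no support for a difference. No probe set passed. Null and control signals did not overlap for 5 lower genes (*Mcm4*, *Mcm5*, *Mcm7*, *Rrm2* and *Cdkn2aipnl*) and 6 higher genes (*Ccna2*, *Ccnb2*, *Cdc5l*, *Cdc7*, *Mki67* and *Top2a*), which is 9.09% and 10.9%, beside 8.61% and 6.90% of all probe sets. *Mcm4* had αCD3 signals of 1042, 868.3, 1030 and 1185 in the control mice and 697.7 and 788.6 in the null mice, a difference of -0.44 (SE 0.19) with an adjusted p of 0.813 from limma. *Ccnd2* had 289 ± 101 (SD, n = 4) in the control mice and 153.7 ± 89.4 (SD, n = 2) in the null mice (-0.75, standard error 0.37, adjusted p = 0.874 from limma), and *Ccnd3*, *Cdc5l* and *Cdc7* had -0.37, 0.42 and 0.33. The *Ccnd2* value was -1.22 without null mouse 1, -0.29 without null mouse 2, -1.13 against Lck-Cre mice alone and -0.38 against Med23flox/flox mice alone. The *Cdc5l* value ran from 0.19 to 0.54 over the alternatives of processing other than leaving out a mouse. A second, dimmer *Cdc5l* probe set had 0.08 in mock cells and 0.02 for the mean of both treatments, where the first had 0.00 and 0.21. Of 28 other replication genes 15 were lower, with a median of -0.01, and 2 were higher at an unadjusted p under 0.05, where 2.47% of all probe sets were. They were *Dut*, which encodes dUTPase (0.90, standard error 0.27, adjusted p = 0.639 from limma), and the origin gene *Orc1* (0.60, standard error 0.19, adjusted p = 0.671 from limma). Of 25 other mitosis genes 21 were higher in null cells, with a median of 0.16, but the checkpoint kinase gene *Chek1* was lower, by -0.69 (standard error 0.17, adjusted p = 0.582 from limma).

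With mock and αCD3 arrays of each mouse averaged, *Rrm2* (-0.35, standard error 0.12, adjusted p = 0.529 from limma), *Mcm5* (-0.30, standard error 0.12, adjusted p = 0.592 from limma) and *Mcm4* (-0.30, standard error 0.13, adjusted p = 0.626 from limma) were lower in null mice at an unadjusted p under 0.05. They are 5.45% of the 55, beside 4.19% of all probe sets, and no gene of the 55 was higher at that level, beside 3.79%. No probe set passed. *Ccnd2* had -0.69, *Pcna* -0.38, *Myc* -0.40, *Ccnd3* -0.23 and *E2f3* 0.40. The 5 MCM genes were all lower, with a median of -0.26, and the 5 mitosis markers had a median of 0.06. These averages hold the same arrays as the comparisons above.

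Summed signals of cell type markers differed between genotypes beside these values. The summed signal of 6 markers of DP cells was 90080 to 95560 in control and 71300 to 77700 in null mock cells. After αCD3 it was 81250 to 85200 in control and 74310 to 75830 in null cells. In mock cells *Cd4* was higher in null mice, at 0.29, while the other DP markers were lower, at -0.45 (*Rag2*) to -0.16 (*Cd8a*). The summed signal of 7 markers of mature single positive cells was 14200 to 18120 in control and 10500 to 12020 in null mock cells. Of these 7 markers 7 were lower, with *Cd52* and *Ccr7* at -1.24 and -1.26. *Klf2*, also in this list, had -2.02 (standard error 0.21, adjusted p = 0.422 from limma) for Med23flox/flox minus Lck-Cre mock cells. The study reported lower *Klf2* and *Cd52* mRNA within isolated CD4 single positive null thymocytes, and normal proportions of thymocyte subsets. The sum does not separate fewer cells from less RNA per cell. The summed signal of 6 markers of double negative and immature single positive cells, the stages where most thymic division lies, was 2162 to 2651 in control and 2742 to 3146 in null mock cells. These markers did not move together: *Kit*, *Notch1* and *Hes1* had 0.68, 0.25 and 0.24, whereas *Cd44* and *Ptcra* had -0.64 and -0.12. The 3 erythroid markers summed to 6338 to 16660 in control and 14990 to 37280 in null mock cells, and 5 B cell markers to 6273 to 6877 and 7646 to 7720. The 3 markers of NK and cytotoxic cells summed to 1239 to 1701 and 3642 to 5104, of which *Gzma* made up most. *Gzma* had a mock null minus control difference of 1.73, while *Klrd1* had 0.09 and *Ncr1* stayed below 100 on all arrays. The 6 myeloid markers summed to 1078 to 1537 and 1532 to 1621, and the 5 epithelial markers to 254.9 to 347.7 and 248.0 to 319.9. Of the other lists, 3 epithelial markers and 1 of the double negative and immature markers stayed below 100 on all arrays. The 3′ to 5′ ratio of the actin control probe sets was 1.35 to 1.41 on control and 1.61 to 1.9 on null αCD3 arrays. On mock arrays it overlapped, at 1.35 to 1.6 on control and 1.44 and 1.63 on null arrays. The *Gapdh* ratio on αCD3 arrays was 0.599 to 0.648 on control and 0.636 and 0.766 on null arrays. The part of these shifts in the differences between genotypes was not tested.

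The response to αCD3 was not shown to differ between null and control mice for any of the 55 genes or any probe set. The difference in induction had an unadjusted p under 0.05 for *Cdkn2a* and *Ccne1*, which is 3.64% of the 55, beside 5.13% of all probe sets. Of these, *Cdkn2a* was tested only because its signal reached the filter in control conditions. The direction of the response was one way in both null mice and the other way in all 4 control mice for *Ccne1*, *Cdc5l*, *Cdkn2a* and *Top2a*, 7.27% of the 55 beside 3.47% of all probe sets. Some of these responses were close to 0. *Top2a* moved by 0.00 and -0.04 in Lck-Cre mice 1 and 2, and *Cdc5l* by 0.02 in null mouse 1. On the second *Cdc5l* probe set the difference in induction had the opposite sign. *Ccne1* went from 381.3 to 426.1 and from 450.8 to 746.5 in the null mice and was lower after αCD3 in each of the 4 control mice, a difference in log2 induction of 0.58 (standard error 0.23, adjusted p = 0.957 from limma). *Cdkn2a* had -1.14 (standard error 0.35, adjusted p = 0.93 from limma), and *E2f3*, *Cdk7*, *Cdc5l*, *Cdc42ep4*, *E2f5* and *Cdk5* had -1.18, -0.75, 0.42, 1.03, 0.95 and 0.42. Within the null mice *E2f5* (0.96), *Ccne1* (0.41), *Cdkn2a* (-0.48), *E2f8* (0.29), *Cdc42ep4* (0.80) and *Cdk7* (-0.44) followed *Myc* and *Ccnd2* by test statistic, with adjusted p of 0.979 or more from limma. For 38 of the 55 genes the 95% interval of the difference in induction lay within 2-fold, and for 6 within 1.5-fold.

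Between the control genotypes, mock cells of Med23flox/flox mice had a median difference of 0.06 from those of Lck-Cre mice, with 39 genes higher and 16 lower. One gene, *Cdkn2a*, had an unadjusted p under 0.05, 1.82% of the 55 beside 5.62% of all probe sets, and no probe set passed. *Mki67* had signals of 4116, 3940, 4276 and 4517 on the 4 Lck-Cre arrays and of 4967 to 5732 on the 8 arrays of the other mice. Its mock difference between the control genotypes was 0.36 (standard error 0.18, adjusted p = 0.922 from limma), and that between null and control mice was 0.10 (standard error 0.18). *Myc* had a difference of 0.15 (SE 0.19) with an adjusted p of 0.98 from limma.

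For 14 of the genes 15 further probe sets reached the signal filter. Their differences after αCD3 were a median of 0.28 away from those of the probe set used, and at most 0.53, for *Bub1*. For some genes the null minus control differences in mock cells lay further apart. They were 0.70 against -0.30 with the probe set used for *Cdkn1b*, 0.93 against -0.03 for *Cdc34* and 0.63 against -0.23 for *Cdk2*. Those of *Cdk4* lay close, at -0.03 against -0.02. Further probe sets of mitosis markers had 0.52 (*Bub1*), 0.44 (*Mki67*), and -0.34 and 0.15 (*Plk1*). The further probe sets were dimmer than the one used. *Myc* and *Ccnd2* were represented by 1 probe set each.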

How the data were processed

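Total thymocytes of 6 mice gave 12 Affymetrix U74Av2 arrays. The deposited values are linear intensities, 1 per probe set, and are the authors' MAS5 signals. The version of MAS5 is not given in the sources used here. The study scaled arrays by a trimmed mean, which was repeated here with 2% trimmed at each end. From 12488 probe sets the 66 controls were removed. The 9478 whose mean signal reached 100 in any of the 6 conditions were tested as log2(signal + 50), with R 4.3.3 and limma 3.58.1 (lmFit and eBayes), and adjusted by Benjamini and Hochberg over all of them, with a threshold of 0.05. Python 3.11.15 and matplotlib 3.10.9 were used for the rest.

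Groups and mice come from the sample titles, which the genotype labels match. The array identifier in the description field is the same for the αCD3 array of Lck-Cre mouse 2 and the mock array of Med23flox/flox mouse 1, whose values differ, and the titles were followed. The αCD3 minus mock differences were fitted within each mouse, so that the mouse is the block. After group means were removed, the mock and αCD3 arrays of a mouse correlated at 0.061 to 0.194 over probe sets. Arrays of null and control mice, and of the control genotypes, were compared in separate fits, giving 8 comparisons, of which those that use the same arrays are not independent. The mice of a genotype are separate animals. With so few arrays, their number limits precision. The fits were tested on simulated data.

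The genes and lists were chosen with earlier results of these data known. Symbols come from the platform annotation, and all 59 matched GRCm38.p6 by Entrez ID. Genes named are *Myc*, those past the threshold, the 8 with the largest test statistics in each of 6 comparisons, the brightest of each role, and up to 3 per other list. Further genes were named after their values were seen, to describe roles, ranges or exceptions. Alternatives were other pseudocounts (16 and 100), no filter or a minimum of 200, quantile normalization, a trim of 10%, a variance trend, the mean of all probe sets of a gene, leaving out each mouse, 1 control genotype, and the replicate block.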

Additional observations from a re-analysis of the deposited data

Results flagged for a closer look

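Among the 4 control mice, 1 mock signal lay far from the others for 3 of 25 genes examined, by the gap to the nearest value over the whole range. *Ccnd2* had 25.1 in Med23flox/flox mouse 2, where the others had 112.5 to 126.4. *Cdkn2d* had 3771 in Med23flox/flox mouse 1, where the others had 3075 to 3102. *Mcm5* had 2807 in Lck-Cre mouse 1, where the others had 2488 to 2512. These are 3 of 75 groups of 4 values, and chance alone places about 1 in 20 groups past the limit used.

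For 3 of the 25 genes examined the difference after αCD3 had one sign in both null mice and the other in all 4 control mice. These 25 genes were picked in part for a large test statistic of this same difference. Their share therefore cannot be set against the 3.47% of all probe sets, beside which the share of all 55 genes was 7.27%. The log2 induction differed by 0.58 for *Ccne1*, by 0.42 for *Cdc5l* and by -1.14 for *Cdkn2a* (null minus control). That of *Cdc5l* ran from 0.16 to 0.52 over the alternatives of processing other than leaving out a mouse. None of these differences passed the test across all probe sets (adjusted p = 0.957, 0.974 and 0.93 from limma). In null mouse 1 *Cdc5l* moved by only 0.02. A second, dimmer *Cdc5l* probe set had 0.08 in mock cells and 0.02 for the mean of both treatments (null minus control). Its difference in induction therefore had the opposite sign. *Cdkn2a* reached the signal filter only in control conditions.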

How the results depend on the processing

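The call for *Myc* over the 6 mice depended on the mice used. Its log2 difference stayed between 1.19 and 1.33 with each mouse left out in turn. The number of the 55 genes past the threshold was 1, became 2 with a variance trend (*Ccnd2* added), 0 with Lck-Cre or with Med23flox/flox mice as the only controls, and 0 to 1 with each mouse left out in turn. In the control mice it was 0 and became 1, *Myc*, with a pseudocount of 100, a minimum signal of 200, a variance trend, the mean of all probe sets of a gene, and no replicate block (adjusted p = 0.00839 from limma). The median null minus control difference of the 55 genes became -0.18 in mock and 0.01 in αCD3 cells with Med23flox/flox controls only. With each mouse left out it ran from -0.07 to 0.08 in αCD3 cells, and the median of the mouse means from -0.10 to -0.05. The latter was -0.05 with a minimum of 200, with the mean of all probe sets and with Lck-Cre controls only. That between control genotypes ran from 0.07 to 0.13 with each mouse left out. Differences near 0 changed sign, and so did that of *Cdk2* in control mice. It was -0.37 and became 0.04 with the mean of all probe sets. With that mean, *Mki67* over the 6 mice was 0.00 and *Mcm5* 0.10. *Mcm5* was 0.01 with quantile normalization and 0.05 with Med23flox/flox controls only, where *Cdk1* was -0.04. With each mouse left out *Mki67* ran from 0.00 to 0.04, *Cdk1* from -0.06 to 0.09 and *Mcm5* from -0.05 to 0.03. The cause was not tested. Of the values for single genes, 980 kept direction and side of the threshold and 14 changed sign.

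Replicate numbers pair arrays of 1 mouse but not mice of different genotypes, whose same-numbered mice correlated at 0.0554 to 0.117. The replicate block between genotypes left 0 of the 55 genes past the threshold and the median mock difference at -0.09. Leaving out 1 mouse moved 14 of 34 differences between null and control mice of named genes by over 1.5 times and changed the sign of 0. With 2 null mice, differences between genotypes have wide intervals, and signals under 100 are imprecise.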
